A study of Mus musculus with 8 samples.

Results

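Wild-type mouse ventricle was compared between birth and 1 week of age. The comparison used 4 of the 8 arrays of the series: the 2 columns of the deposited value table titled wild type at 1 week and the 2 titled wild type at birth (0 day). Each array was a single-colour (Cy3) Agilent oligonucleotide array of total RNA, and by the labels a group pooled ventricle tissue from 3 animals. The series text calls the tissue left ventricle and the sample labels call it ventricle. No allele, transgene or treatment is named for the wild-type animals, and their strain and sex are not given in the sources used here. The labels do not say whether the 2 arrays of an age came from separate pools. Each error rests on the spread between the 2 arrays within each group of the fit and could be purely technical. The other 4 arrays were from mice homozygous for a knock-in, TNNT2deltaK210/deltaK210, that removes lysine 210 of cardiac troponin T, at the same 2 ages. They entered the fit so that all groups share 1 estimate of spread, and they serve below to show where the wild-type change differs.

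The newborn ventricle passes within days from a fetal to an adult way of working. Its cardiomyocytes exchange fetal for adult isoforms of contractile proteins, turn from glucose and lactate toward fatty acids as fuel, stop dividing and grow in size instead, while fibroblasts, capillaries and nerves spread between them. Oxygen tension rises at the first breath, the placental growth programme ends, and glucocorticoid and thyroid hormone levels shift around birth.

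The 75th percentile of signal was 440 and 453 on the birth arrays (birth 1 and birth 2) and 511 and 343 on the 1-week arrays. On the 8 arrays 60.7% to 64.7% of probes stood clear of background, and no spot was saturated. All arrays shared 1 slide and 1 scan, but birth arrays lay in row 1 and 1-week arrays in row 2, so age and slide row cannot be told apart. Each value-table column equalled 1 scanner file, and for 3 columns at 1 week that file was deposited under another sample. The first 1-week wild-type column (array A) is the same sample in both records. The second (array D) is a knock-in sample by its scanner file, and the scanner files name another array (array B, a knock-in column of the value table) as the second wild-type sample. Array D stood apart: the second principal component of all 8 arrays, with 11.7% of the variance, placed it at -35.4 against 13.2 for array A, and the median difference between arrays A and D over genes was 0.24 log2 units against 0.167 between the birth arrays. The value-table samples were used throughout, with the scanner-file samples (A and B) given beside them where a named gene loses its call.

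Levels are log2 signal relative to the array's 75th percentile, and changes are 1 week minus birth on the same log2 scale with the limma standard error, with 2 arrays at each age. A gene was called when its Benjamini-Hochberg adjusted p in limma was under 0.05. With 2 arrays against 2, an exact permutation test of a single gene cannot go below a two-sided p of 0.333. A call is said to have held throughout when it was made in the same direction in each of 20 alternative analyses in which the gene was tested: other sample labels, scaling, background correction, filters and probe rules, and leaving out each array. Fewer cells of a type and less RNA per cell cannot be told apart in these tissue samples.

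Over the week 2990 of 15744 genes tested passed (19%). Of these, 1577 rose (10% of genes tested) and 1413 fell (8.97%). Counts of called members in the lists below are best read against these shares. The median change over all genes was -0.04, and 739 of the risers and 555 of the fallers changed at least 2-fold, 131 and 125 at least 4-fold. These fold counts use fitted changes, and 362 of the called genes were not above background on all 4 wild-type arrays. The arrays of the 2 ages did not overlap for 9879 genes (62.7%). The count rested on single arrays: it was 1192 without birth 1, 1253 without birth 2, 1632 without array D and 4181 without array A. With the scanner-file samples 1994 genes passed, 1662 of them shared. All but 1 of the 2977 called genes that could be tested there kept their direction, the exception being the neuritin gene Nrn1 (-0.68, and +0.007 with arrays A and B). Scaling by each array's median in place of the 75th percentile moved the median change to -0.20 and the share of risers among called genes from 52.7% to 36.3%, so small changes are best read against that shift. The calls of 588 genes, 381 higher and 207 lower, held throughout, and 549 of these changed at least 2-fold. Of the 188 called genes named here, 43 were not called with the scanner-file samples, and each is named as such in its paragraph.

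**Figure D1:**
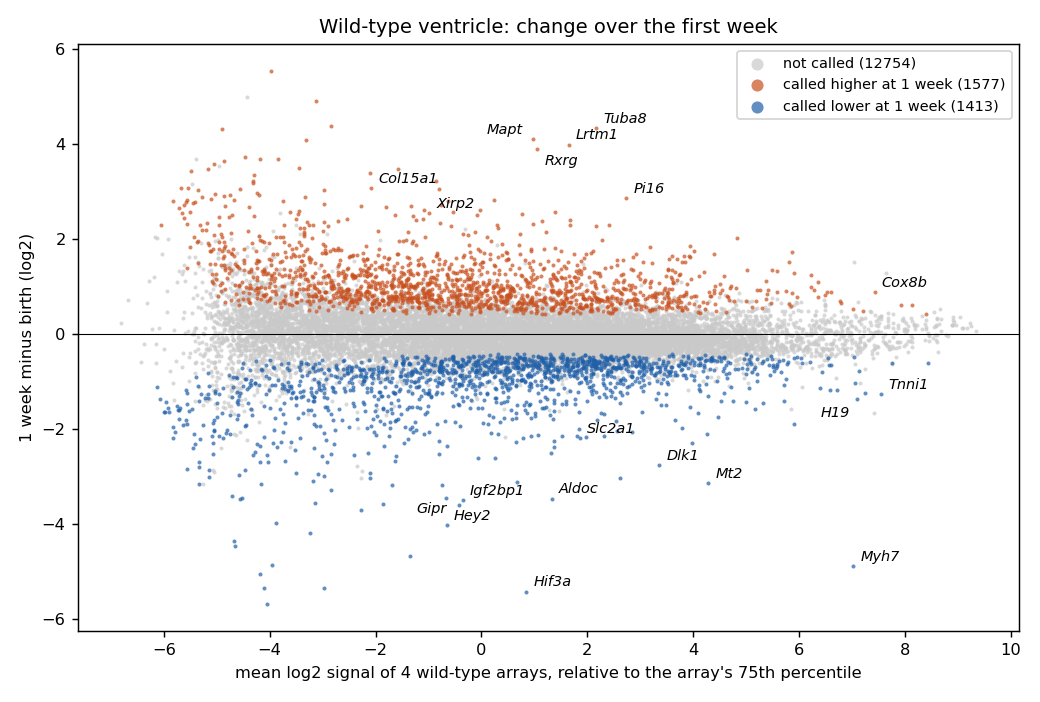
Change of each of the 15744 genes tested (vertical axis, 1 week minus birth, log2) against its mean log2 signal on the 4 wild-type arrays relative to the array's 75th percentile (horizontal axis). Orange points are the 1577 genes called higher, blue the 1413 called lower and grey the rest; Myh7 is the bright gene far below the others, and Tuba8, Mapt, Lrtm1 and Rxrg lie at the top.

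Among sarcomere genes the largest changes were in a fetal myosin and in proteins of the Z-disc. Myh7, the slow beta myosin of fetal rodent ventricle, was at 9.49 and 9.44 at birth and at 4.61 and 4.54 at 1 week. The ages are far apart and each pair of arrays is tight; Myh7 fell by 4.89 ± 0.12, or 29.6-fold (adjusted p = 2.63e-05). Array B, which the scanner files call wild type, was at 7.12, and with arrays A and B the change was -3.60 and was not called. Tnni1, the slow skeletal troponin I of the fetal heart, stood at 8.20 and 8.17 at birth and at 6.84 and 6.99 at 1 week. It fell without overlap by 1.27 ± 0.12 (2.42-fold), and this call held throughout. Casq1, the calsequestrin of fast skeletal muscle, fell by 1.55 ± 0.26 (adjusted p = 0.00949), but the change was -0.10 with the scanner-file samples and the call was lost without birth 1 (adjusted p = 0.0541). These 3 were the called members of 13 tested fetal and slow isoforms and none rose, against 5 lower without array D. Casq1 was counted in this list although it is of fast muscle, so Myh7 and Tnni1 were its only called fetal or slow isoforms. The list's median was -0.16 and turned to +0.07 without array A or without birth 1. Embryonic myosin Myh3 was at -1.52 ± 0.65 and skeletal actin Acta1 at -0.16 ± 0.30, neither of them called.

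The adult partners of these isoforms did not pass on their brightest probes. Myh6, the fast myosin heavy chain of the adult mouse heart, was at 8.84 and 8.77 at birth and at 8.90 and 9.1 at 1 week, a difference of +0.19 ± 0.13. A second, dimmer Myh6 probe was at +1.32, and the mean of both probes gave +0.75 (adjusted p = 0.0398), so this result depends on the probe. Tnni3, the adult cardiac troponin I, was at 7.97 and 7.89 and then at 8.13 and 7.94 (+0.11 ± 0.13). For Tnnt2, cardiac troponin T, the levels were 8.16 and 8.30 and then 8.33 and 7.77 (-0.18 ± 0.19). The arrays of the ages overlapped for Tnnt2 and Tnni3 and lay close together for Myh6. Light chains Myl2 (+0.18 ± 0.15) and Myl3 (+0.12 ± 0.12) and myosin-binding protein Mybpc3 (+0.17 ± 0.12) likewise missed the threshold.

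Of 45 adult sarcomere genes tested, 6 rose (13.3%) and 3 fell (6.67%), near the shares of all genes tested (10% and 8.97%). The median was -0.11, with the sign turning in 4 of the alternatives. Xirp2, an actin-binding repeat protein of the intercalated disc and Z-disc, was at -2.20 and -2.32 at birth and at 0.62 and -0.06 at 1 week, and rose by 2.54 ± 0.29 (5.83-fold). The titin-associated ankyrin repeat gene Ankrd23 went from 1.33 and 1.26 to 3.80 and 2.76 (+1.99 ± 0.32). Tcap, telethonin, which caps titin at the Z-disc, went from 5.83 and 5.80 to 6.73 and 6.76 (+0.93 ± 0.13), and the muscle ring-finger gene Trim54 rose by 1.5 ± 0.21. In all 4 genes both 1-week arrays lay above both birth arrays, and all 4 calls held throughout. The other 2 risers, named after their values were seen, were the Z-disc gene Myot (+0.94) and the M-band gene Myom3 (+0.65). The 3 that fell were the Z-disc PDZ-LIM gene Ldb3 (-0.59 ± 0.15), the pointed-end capping gene Tmod1 (-0.83 ± 0.21) and Myzap of the intercalated disc (-0.98 ± 0.26). A dimmer probe of Ldb3 pointed the other way. No fall was called once birth 1, birth 2 or array D was left out, while 11 were called without array A, and none with the scanner-file samples.

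**Figure D2:**
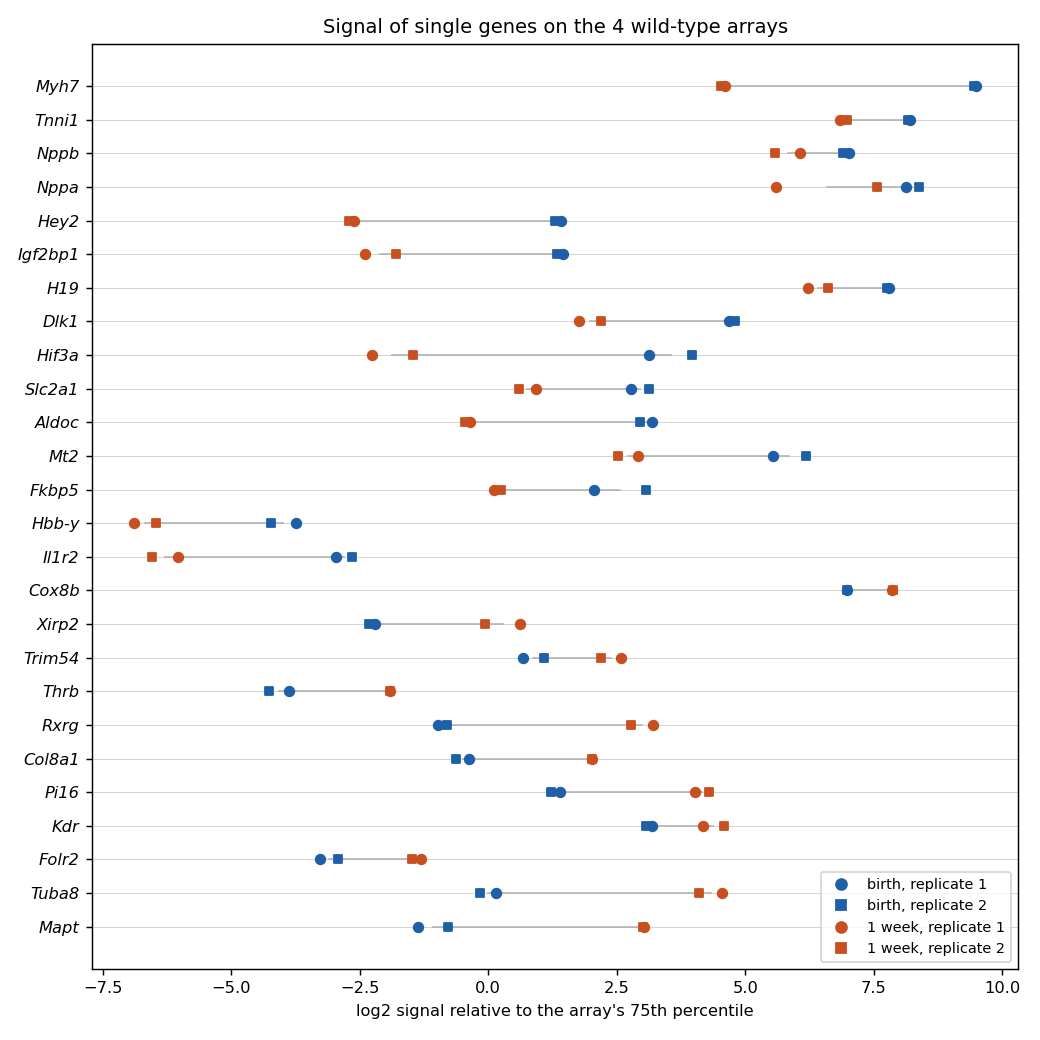
Log2 signal relative to the array's 75th percentile (horizontal axis) for 26 genes named in the text, 1 per line, on the 4 wild-type arrays; blue marks are birth, orange 1 week, circles replicate 1 and squares replicate 2, and the grey line joins the means of the ages. Myh7 at about 9.5 at birth and 4.6 at 1 week has the widest gap among the bright genes, and Nppa is the gene whose 1-week arrays (5.60 and 7.57) lie furthest from each other.

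Of 14 stress and natriuretic genes tested, 5 fell, 1 rose and 8 were not called, with a median of -0.64 that was -0.19 with the scanner-file samples and -0.45 without array D. Nppb, the B-type natriuretic peptide that stretched myocardium releases, was at 7.01 and 6.91 at birth and at 6.07 and 5.58 at 1 week (-1.13 ± 0.21, adjusted p = 0.014). With the scanner-file samples it was at -0.77 and not called, and the call was also lost without birth 1, birth 2 or array D. Nppa, the atrial natriuretic peptide that the fetal ventricle also makes, was at 8.14 and 8.37 and then at 5.60 on array A and 7.57 on array D. Both 1-week arrays lay below birth, but they lay so far apart that the difference of -1.67 ± 0.55 did not pass (adjusted p = 0.0752). Corin, the protease that activates these peptides, fell by 0.81 ± 0.17, and the clearance receptor Npr3 by 1.08 ± 0.26. Npr1, their signalling receptor, rose by 1.21 ± 0.19, from -3.89 and -3.69 to -2.81 and -2.36. Metallothionein Mt2, a zinc-binding stress protein, was at 5.54 and 6.18 and then at 2.92 and 2.52; it fell by 3.14 ± 0.36 (8.84-fold) and held throughout, and its neighbour Mt1 fell by 1.19 ± 0.23. Counts of risers and fallers were 2 and 2 without birth 1, 1 and 1 without birth 2, 1 and 6 without array A, and 2 and 3 without array D. Npr1 lost its call with the scanner-file samples.

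Atrial markers moved between the 1-week arrays and are given beside Nppa, which is one of them. The summed signal of the 11 tested atrial markers, in multiples of the array's 75th percentile, was 456 and 498 at birth, 79.7 on array A and 496 on array D, and 10 of the 11 were higher on array D than on array A. On the knock-in columns of the value table it was 603 and 582 at birth and 424 and 496 at 1 week. Atrial light chain Myl4 was at 6.73 and 6.53 at birth, 3.11 on array A and 6.98 on array D (-1.59 ± 1.05). Connexin 40, Gja5, was at 2.20 and 1.67, then 0.53 and 1.42 (-0.96 ± 0.37). No atrial marker was called, the list's median was +0.01, and it ran from -0.91 without array D to +0.47 without array A. The part of this in the values of Nppa was not tested. The 12 ventricular markers were well above background on all 4 arrays, with sums of 3157 and 3041 at birth and 3247 and 3274 at 1 week.

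Of 36 calcium handling genes 4 rose (11.1%) and 5 fell (13.9%), near the shares of all genes tested (10% and 8.97%), with a median of +0.05 that was -0.11 under median scaling. Hrc, the histidine-rich calcium buffer of the sarcoplasmic reticulum, was at 4.70 and 4.94 at birth and at 6.22 and 6.09 at 1 week. It rose by 1.34 ± 0.14 (2.53-fold), and this was the list's call that held throughout. Camk2b, a calmodulin-dependent kinase, rose by 1.20 ± 0.20 and the T-tubule membrane-bending gene Bin1 by 0.67 ± 0.13, whereas the junction gene Jph1 fell by 0.76 ± 0.15. With normexp Jph1 was at -0.25 and was not called. The pump Atp2a2 (+0.28 ± 0.16), its inhibitor Pln (-0.62 ± 0.28) and the release channel Ryr2 (-0.01 ± 0.11) did not pass. Ryr2 was at 4.68 and 4.67 at birth and at 4.64 and 4.69 at 1 week, while Pln ranged from 6.11 on array A to 5.22 on array D. A second Ryr2 probe, nearly as bright, was at -0.71, and the mean of the Ryr2 probes gave -0.36. The flat Ryr2 value therefore depends on the probe. Calls fell to 2 and 1 without birth 1, 1 and 0 without birth 2 and 3 and 3 without array D, and were 5 and 6 without array A. Bin1 lost its call with the scanner-file samples.

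Potassium, sodium and pacemaker channel genes had a median of +0.32 (+0.20 with the scanner-file samples). Of 33 tested, 7 rose (21.2%) and 3 fell (9.09%), against 10% and 8.97% of all genes tested. The auxiliary subunits Kcnab1 (+1.39 ± 0.21) and Kcne1 (+0.84 ± 0.16) rose, as did Kcnj8, the pore of a vascular ATP-sensitive channel (+0.87 ± 0.18). The slow delayed rectifier Kcnq1 (-0.91 ± 0.22) and the inward rectifier Kcnj12 (-0.58 ± 0.12) fell, and a dimmer probe of Kcnj12 pointed the other way. Of the other Kcnq1 probes, the one nearly as bright was at -0.755. The dimmer ones were at -0.337 and, for the dimmest, at +0.665. Hcn3 was not above background at 1 week and was at least 1.75-fold lower, a call lost with normexp. Pacemaker channel Hcn4 was at +0.25 ± 0.23. Kcnip2, the subunit of the transient outward current, had 1-week arrays at 0.49 and -1.35 around birth arrays at -0.25 and 0.40 (-0.51 ± 0.66). Another inward rectifier outside these lists, Kcnj4, was among the largest falls: it was at 0.66 and 1.03 and then at -2.20 and -2.48 (-3.18 ± 0.20, held throughout). Rises and falls numbered 4 and 0 without birth 1, 3 and 0 without birth 2, 11 and 3 without array A, and 6 and 1 without array D. Kcnq1, Kcnj12 and Kcne1 lost their calls with the scanner-file samples.

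In the intercalated disc list 18 of 19 genes had negative changes, and 3 were called, all lower, with a median of -0.35. The Popeye-domain genes, cyclic AMP binding membrane proteins, led it: Popdc3 was at 1.36 and 1.5 and then at 0.24 and -0.38 (-1.5 ± 0.20, held throughout), and Bves was at 5.92 and 5.51 and then at 4.51 and 4.06 (-1.43 ± 0.21). Vinculin, Vcl, fell by 0.52 ± 0.14. Calls numbered 2 without either birth array or without array D and 8 without array A, and the median ran from -0.52 without array A to -0.13 on array A alone. Bves and Vcl lost their calls with the scanner-file samples.

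Of 34 glycolysis and glucose uptake genes, 10 fell and 3 rose, with a median of -0.48 that was -0.24 without array D and -0.26 with the scanner-file samples. Slc2a1, the GLUT1 transporter of fetal tissue, was at 2.78 and 3.13 at birth and at 0.92 and 0.59 at 1 week, and fell by 2.19 ± 0.27 (4.58-fold). Aldolase C, Aldoc, was at 3.18 and 2.96 and then at -0.35 and -0.46, and fell by 3.47 ± 0.19 (11.1-fold). These pairs do not overlap, and both calls held throughout. The insulin-responsive transporter Slc2a4 (GLUT4) moved the other way, from 4.51 and 4.79 to 5.41 and 5.26 (+0.68 ± 0.14), as did the bifunctional regulators Pfkfb2 (+0.78 ± 0.13) and Pfkfb4 (+0.81 ± 0.13). Platelet-type phosphofructokinase Pfkp fell by 1.04 ± 0.18, and Pdk1, a kinase that shuts pyruvate out of the mitochondrion, by 1.00 ± 0.17, with a dimmer Pdk1 probe pointing the other way. Hexokinase 2, Hk2, was at +0.55 ± 0.16 and just missed the threshold (adjusted p = 0.0524), and Pdk4 was at +0.01 ± 0.22. The list gave 2 higher and 2 lower without birth 1, 1 and 3 without birth 2, 3 and 18 without array A, and 4 and 5 without array D. Pfkp and Pfkfb2 lost their calls with the scanner-file samples.

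Of 7 genes of ketone metabolism 1 was called, and the median was -0.59 (-0.26 with the scanner-file samples, -0.34 without array D). Bdh1, which oxidises the ketone body 3-hydroxybutyrate, was at 0.14 and -0.27 at birth and at -3.60 and -3.70 at 1 week. It fell by 3.58 ± 0.25 (12.0-fold), and held throughout. Oxct1, which the heart needs to burn ketone bodies, was at +0.15 ± 0.14. Of 38 genes of fatty acid uptake and oxidation 3 rose (7.89%) and 2 fell (5.26%), against 10% and 8.97% of all genes tested. The median was +0.01. The thioesterase Acot1 was at 5.29 and 5.19 and then at 3.95 and 3.69 (-1.42 ± 0.17, held throughout), and the liver-type carnitine transferase Cpt1a fell by 0.47 ± 0.12. Decr1, for the oxidation of unsaturated fatty acids, rose by 0.77 ± 0.15, Cpt2 by 0.56 ± 0.16 and the uncoupling gene Ucp2 by 0.65 ± 0.16, while a dimmer Cpt2 probe pointed the other way. Muscle-type Cpt1b was at 4.97 and 4.72 at birth and at 4.86 and 4.97 at 1 week (+0.07 ± 0.16). Left-out arrays gave 1 and 1 without birth 1, 0 and 1 without birth 2, 1 and 5 without array A, and 2 and 1 without array D. Ucp2 lost its call with the scanner-file samples.

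Mitochondrial lists had fewer calls than the 19% of all genes tested. Oxidative phosphorylation had 3 of 73 genes higher and 2 lower (median +0.07), the citric acid cycle 1 of 27 higher (median -0.09), and regulators and energy transfer 2 of 23 higher and 1 lower (median 0.00), and each of the 3 medians changed sign in some alternative. Within cytochrome oxidase the muscle and liver isoforms of subunit 8 parted. Cox8b, the muscle form, was at 6.98 and 6.99 and then at 7.85 and 7.87 (+0.88 ± 0.11), and Cox8a, the general form, was at 8.14 and 8.0 and then at 7.48 and 7.44 (-0.61 ± 0.12). Cox8b lost its call with the scanner-file samples (+0.66) and Cox8a with those and with several arrays left out. Cox7a1, another muscle form, was at +0.44 ± 0.13 and did not pass (adjusted p = 0.058), and the general form Cox6a1 fell by 0.61 ± 0.15. Ckmt2, the mitochondrial creatine kinase, rose by 1.23 ± 0.23, from 5.49 and 5.73 to 7.17 and 6.51, and myoglobin, Mb, by 0.60 ± 0.14. Slc25a5, an ADP/ATP carrier of dividing tissues, fell by 1.00 ± 0.24. The coactivator Ppargc1a (-0.07 ± 0.22) and the mitochondrial DNA factor Tfam (-0.67 ± 0.27) were not called. Without array A the oxidative phosphorylation list gave 3 higher and 5 lower and the citric acid cycle 10 lower, and without either birth array or array D no gene of the oxidative phosphorylation list was lower. Slc25a5 lost its call with the scanner-file samples.

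Of 88 cell division genes 9 fell (10.2%, against 8.97% of all genes tested) and none rose, with a median of -0.43 (-0.27 without array D). The fallers included Kif20a (-1.23 ± 0.28) and Kif11 (-0.75 ± 0.18), motors of the mitotic spindle, Ube2c (-1.04 ± 0.22), which tags mitotic cyclins for destruction, and Stmn1 (-0.87 ± 0.19), a microtubule destabiliser. Cyclin B1, Ccnb1, was at 3.04 and 2.58 at birth and at 1.95 and 1.60 at 1 week (-1.03 ± 0.27, adjusted p = 0.0415). Ube2c was at 3.25 and 3.0 and then at 2.32 and 1.86, again with both 1-week arrays below both birth arrays. The proliferation antigen Mki67 was at 3.98 and 3.85 and then at 3.62 and 3.49 (-0.36 ± 0.31, adjusted p = 0.428), and the G1 cyclin genes Ccnd1 (+0.41 ± 0.17) and Ccnd2 (+0.48 ± 0.14) pointed upward without passing. None of the 9 calls was made without birth 1, without birth 2, without array D or with the scanner-file samples, where the median was -0.18, and 13 members were called lower without array A. The summed signal of the list was 665 and 587 at birth and 541 and 455 at 1 week; on the knock-in columns it was 665 and 477 and then 575 and 700, and the knock-in median was +0.32.

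The promoters of cell division genes share a sequence that the list was not chosen for. Mitotic genes are commonly driven by CCAAT boxes, bound by the factor NF-Y, together with a cell cycle homology element, TTTGAA, near the start site. In the 250 bases before the start in RefSeq (GRCm38.p6), CCAAT occurred on either strand in 54 of the 70 list members with an entry (77.1%), against 39.7% of the 12438 tested genes with one. TTTGAA occurred in 21 of the 70 (30.0%), against 13.5% of all. Among all genes that fell the shares were 42.2% and 14.2%, and among all that rose 39.5% and 12.9%. A match is a run of letters and not a shown binding site. The 3 promoters below belong to called members with a match and show the spacing of these boxes; capitals mark CCAAT or TTTGAA or their reverse complements, ATTGG and TTCAAA, and overlapping matches run together.

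Ube2c, chr2:164769679-164769928, plus strand: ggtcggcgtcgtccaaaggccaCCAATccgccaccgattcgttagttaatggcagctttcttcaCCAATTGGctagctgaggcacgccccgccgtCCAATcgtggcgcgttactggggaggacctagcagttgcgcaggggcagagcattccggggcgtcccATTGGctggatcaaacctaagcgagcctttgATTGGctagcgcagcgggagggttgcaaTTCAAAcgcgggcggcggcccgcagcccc
Kif11, chr19:37376132-37376381, plus strand: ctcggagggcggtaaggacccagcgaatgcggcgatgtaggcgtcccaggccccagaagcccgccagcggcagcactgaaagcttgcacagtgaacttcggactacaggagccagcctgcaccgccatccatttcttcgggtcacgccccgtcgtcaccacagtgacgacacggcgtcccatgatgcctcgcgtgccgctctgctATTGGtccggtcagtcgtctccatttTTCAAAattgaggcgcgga
Cdc25b, chr2:131186698-131186947, plus strand: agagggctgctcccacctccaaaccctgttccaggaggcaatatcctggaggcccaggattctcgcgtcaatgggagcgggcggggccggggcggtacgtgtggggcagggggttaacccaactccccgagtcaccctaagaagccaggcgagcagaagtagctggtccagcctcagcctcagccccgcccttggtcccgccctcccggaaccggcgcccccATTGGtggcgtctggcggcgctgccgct

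The Ube2c promoter holds 6 CCAAT matches and 1 TTTGAA match, the latter within the last 29 bases before the start, and that of Kif11 holds 1 of each, the CCAAT box at base 45 and the TTTGAA element at base 19 before the start. Cdc25b, the phosphatase that triggers entry into mitosis, holds 1 CCAAT match, at base 28 before the start, and no TTTGAA in this window; its level was -0.38 and -0.53 at birth and -1.04 and -1.26 at 1 week (-0.69 ± 0.16). It lost its call with the scanner-file samples.

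Genes that restrain the cycle were called in both directions: 2 of 20 inhibitors and pocket proteins rose and 6 fell, with a median of -0.26 (-0.44 without array A, -0.08 with the scanner-file samples). Rbl2, the pocket protein p130, was at -0.53 and -0.06 and then at -1.55 and -1.65 (-1.31 ± 0.18), and Cdkn1c, the imprinted inhibitor p57, was at 4.76 and 4.79 and then at 3.54 and 3.90 (-1.06 ± 0.15). Both calls held throughout. Ccng2 (-0.81 ± 0.16) and Gadd45b (-0.75 ± 0.17) also fell, and Btg2 rose by 0.51 ± 0.13. Cdkn2a, the locus of p16 and p19ARF, was not above background at birth and was at least 1.73-fold higher at 1 week (adjusted p = 0.036); with normexp the change was +0.44 and was not called, and the call was lost without birth 1, array A or array D. Calls were 0 and 4 without birth 1, 1 and 2 without birth 2, 0 and 4 without array A, and 1 and 4 without array D. Btg2 and Cdkn2a lost their calls with the scanner-file samples.

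Imprinted growth genes and fetal RNA-binding proteins formed the list with the largest median fall among the functional lists. Of 22 tested, 13 fell and none rose (median -1.12), and 9 of these calls held throughout. Igf2, the fetal insulin-like growth factor, was at 5.14 and 5.26 at birth and at 3.94 and 3.96 at 1 week (-1.25 ± 0.12), and the linked noncoding RNA H19 was at 7.80 and 7.76 and then at 6.22 and 6.60 (-1.37 ± 0.16). Dlk1, a Notch-like membrane ligand, was at 4.67 and 4.80 and then at 1.76 and 2.19 (-2.77 ± 0.17, 6.80-fold lower). Each of these pairs is tight within an age and separate between ages. The zinc-finger gene Plagl1, which regulates other imprinted genes, fell by 1.90 ± 0.11, although a dimmer probe of it pointed the other way. All 3 Igf2 mRNA-binding proteins fell: Igf2bp1 by 3.50 ± 0.23 (11.3-fold), Igf2bp2 by 1.79 ± 0.15 and Igf2bp3 by 1.41 ± 0.17. Igf2bp1 was at 1.46 and 1.34 and then at -2.40 and -1.80. The imprinted genes Impact (+0.04 ± 0.17), Sgce (0.00 ± 0.14) and Ppp1r9a (+0.13 ± 0.14) did not pass. With arrays left out the list gave 10 calls without either birth array, 13 without array A and 15 without array D, and 14 with the scanner-file samples.

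Receptors and carriers of the same hormones changed in both directions, with 2 of 14 higher and 3 lower. Igf1r, the receptor for both insulin-like growth factors, was at 2.65 and 2.88 and then at 1.5 and 1.59 (-1.22 ± 0.16, held throughout), and its adaptor Irs1 fell by 1.02 ± 0.18. Igfbp7 was at 5.05 and 5.04 and then at 6.49 and 6.65 and rose by 1.52 ± 0.12, which held throughout, whereas Igfbp2, called lower, was above background on 1 of the 1-week arrays, was at -0.63 and not called with normexp, and lost its call without either birth array. Igf1 itself was at +0.52 ± 0.15 and just missed the threshold (adjusted p = 0.0521). Calls were 1 and 2 without birth 1, 1 and 1 without birth 2, 4 and 3 without array A, and 2 and 3 without array D. Irs1 lost its call with the scanner-file samples.

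Cardiac transcription factors fell more often than they rose: 11 of 33 were lower and 2 higher, with a median of -0.34 (-0.22 with the scanner-file samples). Hey2, a repressor downstream of Notch in the compact ventricular wall, was at 1.42 and 1.29 at birth and at -2.61 and -2.72 at 1 week. It fell by 4.02 ± 0.19 (16.3-fold) with no overlap, and the call held throughout. Hand1, a left ventricular factor of the embryo, fell to below background at 1 week, by at least 5.23-fold, and Irx2, of the conduction and septal Iroquois group, by 1.88 ± 0.19. With normexp the log2 change of Hand1 was -0.92, a smaller fall than that bound. Gata6, an early regulator of heart and vessels, was at 4.87 and 4.99 and then at 3.80 and 3.44 (-1.31 ± 0.15). These 4 calls held throughout. Irx4, a ventricular identity factor, fell by 0.97 ± 0.21, with the call lost in the scanner-file samples. Heyl (+1.18 ± 0.24) and Nr2f1 (+0.93 ± 0.16) rose. Calls were 2 and 6 without birth 1, 0 and 7 without birth 2, 3 and 12 without array A, and 1 and 6 without array D. Nr2f1 lost its call with the scanner-file samples.

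Genes tied to glucocorticoid and thyroid hormone were called in both directions. Thrb, the beta receptor for thyroid hormone, was at -3.88 and -4.27 at birth and at -1.92 and -1.91 at 1 week (+2.16 ± 0.27, 4.47-fold), and Hr, a corepressor induced by that hormone, was at -2.97 and -2.79 and then at -0.52 and -0.23 (+2.51 ± 0.17). Both calls held throughout. The glucocorticoid receptor Nr3c1 rose by 0.79 ± 0.14 and the mineralocorticoid receptor Nr3c2 by 1.02 ± 0.27. Fkbp5, a chaperone that glucocorticoids induce, was at 2.06 and 3.07 at birth and at 0.12 and 0.25 at 1 week (-2.38 ± 0.32, held throughout). The birth arrays are 1.01 log2 units apart there and still both lie above both 1-week arrays. Klf15, another glucocorticoid target, was at 2.11 and 3.09 and then at 0.64 and 0.28 (-2.14 ± 0.36), and Lcn2 fell by 1.30 ± 0.20. In all, 4 of 24 members rose and 9 fell (median -0.45, and -0.21 without birth 2), with Mt1, Mt2 and Per1 counted here too. Without birth 1 the calls were 3 and 5, without birth 2 or array D 3 and 4, and without array A 3 and 10. Nr3c2 lost its call with the scanner-file samples.

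Of 19 clock genes 1 was higher (5.26%) and 2 lower (10.5%), against 10% and 8.97% of all genes tested. Per2 fell by 1.32 ± 0.17 and Per1 by 1.16 ± 0.32, and Per3 rose by 0.69 ± 0.15. Per1 was at 4.38 and 5.0 and then at 3.95 and 3.10, a call lost without either birth array or array D and with the scanner-file samples, and a dimmer Per2 probe pointed the other way. The hour at which tissue was taken is not given in the sources used here.

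Hif3a, an oxygen-regulated alpha subunit that dampens the hypoxia response, had the largest fall of all genes above background at both ages. It was at 3.13 and 3.97 at birth and at -2.27 and -1.47 at 1 week, and fell by 5.42 ± 0.37 (42.9-fold, adjusted p = 0.000572), which held throughout. Epas1, which encodes HIF-2 alpha, was at 4.79 and 4.86 and then at 5.99 and 5.87 (+1.1 ± 0.12, held throughout), so 2 subunits of the same factor family moved oppositely. Hypoxia targets as a whole gave 4 of 28 higher and 3 lower (median -0.15, and +0.02 without array D), near the shares of all genes. The risers included Ankrd37 (+1.57 ± 0.31), and Slc2a1 and Pdk1, described above, were among the fallers. Bnip3, a mitophagy gene, was at -1.1 ± 0.32 (adjusted p = 0.0542). Without array A 7 members fell, and without birth 2 only 2 rose.

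Adrenergic signalling genes gave 5 of 26 higher (19.2%, against 10% of all genes tested) and none lower (against 8.97%). Among regulators of G-protein signalling, Rgs4 was at -3.46 and -4.33 and then at -1.58 and -1.47 (+2.37 ± 0.26), and Rgs5, which is also a pericyte gene, was at 2.71 and 2.98 and then at 4.28 and 4.13 (+1.36 ± 0.14). Both held throughout. Adenylyl cyclase Adcy7 rose by 1.75 ± 0.30 and the phosphodiesterase Pde3a by 1.14 ± 0.21. Without either birth array 3 members rose. Pde3a lost its call with the scanner-file samples.

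Of 24 serine, one-carbon and integrated stress genes 6 fell and 1 rose. Aldh1l1, a cytosolic folate enzyme, was at 0.40 and 0.52 and then at -2.11 and -2.04 (-2.53 ± 0.15, held throughout). Psat1 of serine synthesis fell by 1.26 ± 0.19 and mitochondrial Shmt2 by 1.04 ± 0.18, and the stress factor Atf5 rose by 0.78 ± 0.13. Falls numbered 2 without either birth array and 3 without array D. Ftcd, a folate enzyme of histidine breakdown outside this list, was at 2.35 and 2.13 and then at -0.90 and -0.86 (-3.12 ± 0.16, held throughout). Psat1 lost its call with the scanner-file samples.

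Cytoplasmic ribosomal protein genes had negative changes in 76 of 78 members, with a median of -0.30, but 8 were called (10.3%, against 8.97% of all genes), all lower, and none without birth 1, birth 2 or array D. The largest called fall was Rpl5 (-0.84 ± 0.19); many of these genes have near-identical pseudogene copies that a probe may also bind. Splicing regulators had 1 of 21 higher (4.76%) and 2 lower (9.52%), against 10% and 8.97% of all genes. Rbfox1 rose (+0.83 ± 0.14), and the neuronal repressor Ptbp2 (-1.17 ± 0.21) and the muscle factor Rbm24 (-0.77 ± 0.13) fell. No splicing call was made without birth 1. Rpl5 lost its call with the scanner-file samples.

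Antioxidant genes gave 2 of 41 higher (4.88%) and 7 lower (17.1%), against 10% and 8.97% of all genes tested. The extracellular superoxide dismutase Sod3 was at -0.42 and -0.02 and then at 1.43 and 1.86 (+1.87 ± 0.23). Mgst1 (-1.48 ± 0.15), Gstm1 (-1.45 ± 0.21) and the thioredoxin inhibitor Txnip (-1.18 ± 0.14) fell, and these 4 calls held throughout. Interferon-stimulated genes gave 2 of 30 higher, Gbp2 (+0.97 ± 0.15) and Ifi27 (+0.99 ± 0.18), and 8 lower, among them the regulator Irf7 (-0.77 ± 0.12) and the RNA sensor Dhx58 (-0.87 ± 0.13). With normexp Dhx58 was at -0.32 and was not called. Antioxidant falls numbered 4 without birth 2 or array D and 11 without array A, and interferon falls 4 without either birth array.

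**Figure D3:**
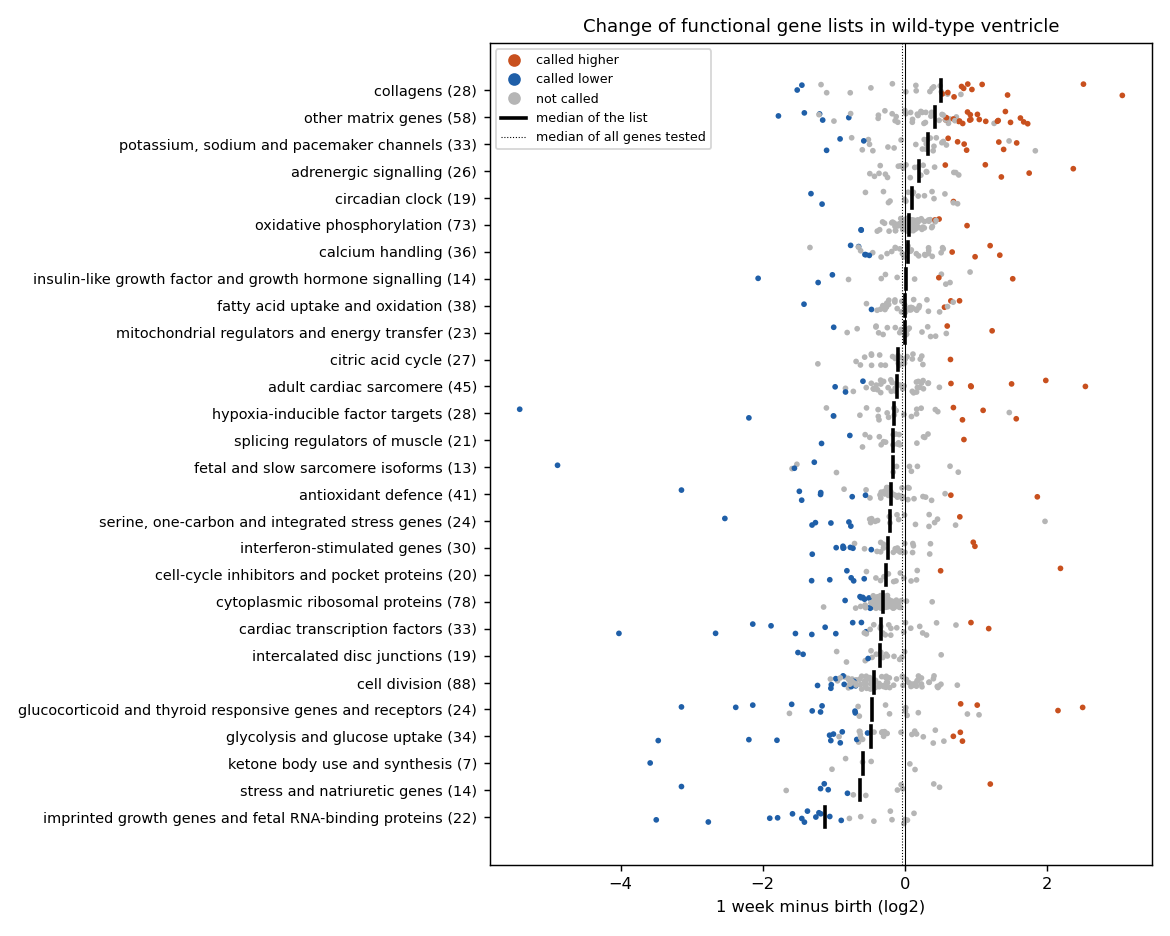
Change of each tested member (points; 1 week minus birth, log2, horizontal axis) of the 28 functional lists, ordered by median, with the number tested in brackets. Orange points were called higher, blue lower and grey not called; the black bar is the list's median and the dotted line that of all genes. Collagens lie at the top with a median of 0.51 and imprinted growth genes at the bottom with -1.12.

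Of 28 collagen genes 11 rose and 2 fell (median +0.51), and of 58 other matrix genes 20 rose and 5 fell (median +0.43). Col15a1, a basement membrane collagen of microvessels and muscle, was at -3.80 and -3.44 at birth and at -0.94 and -0.16 at 1 week (+3.06 ± 0.32, 8.37-fold). Col8a1, a short-chain collagen of vessels, was at -0.38 and -0.62 and then at 2.02 on both arrays (+2.52 ± 0.14), and fibrillar Col1a2 was at 5.75 and 5.87 and then at 6.78 and 7.03 (+1.09 ± 0.15). These 3 calls held throughout. Col1a1, the partner chain of Col1a2, was at 5.73 and 5.72 and then at 5.98 and 6.47, a difference of +0.50 ± 0.20 that did not pass. Col11a1 (-1.51 ± 0.13) and Col23a1 (-1.45 ± 0.24) fell. Collagen calls numbered 4 and 2 without birth 1, 4 and 1 without birth 2, 11 and 3 without array A, and 7 and 3 without array D. Col11a1 lost its call with the scanner-file samples.

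Among the other matrix genes the small leucine-rich proteoglycan Lum was at 3.18 and 3.04 and then at 4.66 and 4.83 (+1.63 ± 0.15). The microfibril gene Mfap4 (+1.68 ± 0.16), the calcium-binding Smoc2 (+1.49 ± 0.13) and the elastin crosslinker Loxl1 (+1.14 ± 0.12) rose too, and all 4 held throughout. The fallers were Timp4 (-1.78 ± 0.31), a metalloproteinase inhibitor of heart muscle, Ccn2 (-1.41 ± 0.28), the growth factor CTGF, fibrillin 2, Fbn2 (-1.20 ± 0.20), which marks the fetal microfibril, Thbs4 (-1.16 ± 0.19) and, named after its value was seen, versican, Vcan (-0.79). Dimmer probes of Vcan were flat and of opposite sign, at +0.028 and +0.037. Periostin, Postn, was at 5.15 and 4.96 and then at 5.06 and 5.09 (+0.02 ± 0.22), with a dimmer probe of opposite sign. Calls of these other matrix genes were 12 and 2 without birth 1, 13 and 3 without birth 2, 24 and 5 without array A, and 16 and 3 without array D. Ccn2, Fbn2 and Thbs4 lost their calls with the scanner-file samples.

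Of 17 fibroblast markers 11 rose and 2 fell (median +0.97), and 8 of the calls held throughout. Pi16, a marker of adventitial fibroblasts, was at 1.39 and 1.23 at birth and at 4.02 and 4.30 at 1 week (+2.85 ± 0.21, 7.21-fold), and Islr, of mesenchymal cells, was at 0.41 and 0.57 and then at 2.11 and 2.48 (+1.80 ± 0.16). Tcf21, the factor of resident cardiac fibroblasts, fell by 0.48 ± 0.12, and Dpep1 by 1.36 ± 0.33, both calls being lost when either birth array was left out and that of Tcf21 with the scanner-file samples. The summed signal of the markers was 301 and 304 at birth and 493 and 641 at 1 week. Risers and fallers were 8 and 0 without either birth array, 11 and 1 without array A, and 8 and 1 without array D. Collagen and matrix genes overlap with this list in Col1a1, Col1a2, Col3a1, Dcn, Lum, Mfap4 and Mfap5.

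Endothelial markers gave 10 of 20 higher and 1 lower (median +0.57, and +0.38 with the scanner-file samples). Kdr, the main receptor for vascular endothelial growth factor, was at 3.19 and 3.07 and then at 4.17 and 4.59 (+1.25 ± 0.17), and the peptide Apln was at 0.65 and 0.40 and then at 2.81 and 2.83 (+2.29 ± 0.21, 4.90-fold). The factor Erg (+1.47 ± 0.16) and Rgcc (+1.20 ± 0.16) rose as well, and these 4 held throughout, while Plvap, of fenestrated vessels, fell by 1.16 ± 0.18. The pan-endothelial gene Emcn was at 3.67 and 3.69 and then at 3.57 and 3.68 (-0.05 ± 0.13) and Vwf at -0.11 ± 0.18. Endocardial and lymphatic markers gave 4 of 10 lower, including Tmem108 (-1.55 ± 0.22, held throughout) and Npr3. The endothelial calls were 5 and 0 without birth 1, 5 and 1 without birth 2, 10 and 1 without array A, and 5 and 1 without array D.

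Smooth muscle and pericyte markers gave 6 of 15 higher and 1 lower (median +0.64, with +0.36 without array D and +0.31 with the scanner-file samples). Vtn, vitronectin, a pericyte gene in many tissues, was at -1.23 and -1.13 and then at 1.85 and 1.43 (+2.82 ± 0.22, held throughout), and smooth muscle myosin Myh11 rose by 1.44 ± 0.24. Calponin Cnn1 went the other way, from 3.45 and 2.73 to 0.61 and 1.96 (-1.80 ± 0.44), and lost its call without either birth array, and Acta2 was at -0.11 ± 0.18. Schwann and nerve markers gave 5 of 12 higher and none lower (median +0.94, with +0.45 without array D and +1.41 without array A): the glial factor Sox10 rose by 1.52 ± 0.17, the neurotrophin receptor Ngfr by 1.60 ± 0.12 and Dbh, which makes noradrenaline, by 1.78 ± 0.22, and these 3 held throughout. Dbh was at 0.41 and 0.19 at birth and at 2.07 and 2.09 at 1 week. The summed signal of the Schwann and nerve markers did not rise: it was 30.9 and 27.4 at birth and 25.4 and 26.4 at 1 week. Changes were positive in 10 of the 12 members and negative in 2, one of them Mbp (-0.04). Epicardial markers gave 2 of 12 higher, Aldh1a2 (+1.68 ± 0.21) and Bnc2, and 2 lower, Tbx18 (-1.12 ± 0.19) and Tcf21. Smooth muscle rises numbered 2 without birth 1 and 4 without birth 2, Schwann rises 3 without either birth array, and the epicardial list had no fall without birth 1. Bnc2 was not above background at birth and was at least 1.9-fold higher; with normexp it was at +0.40 and not called.

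Calls among blood and immune markers differed in direction between lists, and many of these markers were dim. Of 17 neutrophil markers 10 fell and none rose, with a median of -1.53, which was -0.50 with normexp background correction. It was -1.30 over the 9 members above background on all 4 wild-type arrays, and 2 members were above background on none of these arrays. A member that was above background only at birth could hardly be called higher. Il1r2, a decoy receptor for interleukin 1, was at -2.97 and -2.66 at birth and at -6.03 and -6.55 at 1 week, where it was not above background. It was at least 3.85-fold lower, but with normexp its log2 change was -0.71, a smaller fall than that bound. Mmp8 fell by 1.59 ± 0.15 and, with Il1r2, Retnlg and Lcn2, held throughout. Retnlg was above background on 1 of the 1-week arrays and was at -1.03 with normexp. The summed signal of the neutrophil list was 174 and 177 at birth and 188 and 223 at 1 week. Most of each sum came from the brightest member, Csf3r, which was at 7.30 and 7.35 and then at 7.50 and 7.77 and was not called. The sums therefore say little about the other members. Without birth 1 the falls numbered 5, without birth 2 8, without array A 10 and without array D 9.

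Of 20 lymphocyte markers listed 12 were tested, and of these 8 were higher and none lower (median +1.17), from dim levels. A member that was above background only at 1 week could hardly be called lower. Thy1, of T cells and of fibroblasts, was at 2.06 and 2.22 at birth and at 3.22 and 3.23 at 1 week (+1.09 ± 0.13). It held throughout, as did the call of Cd2, of T cells, which was above background on 1 of the birth arrays and was at +1.1 with normexp. With normexp the list's median was +0.60, and over the 9 members above background on all 4 wild-type arrays it was +1.09. Macrophage markers gave 8 of 20 higher and 2 lower (median +0.43). Folr2 was at -3.28 and -2.92 and then at -1.31 and -1.48 (+1.70 ± 0.19), the receptor Csf1r rose by 1.09 ± 0.14 and Cx3cr1 by 1.15 ± 0.16, while Lyve1, of resident macrophages and lymphatic vessels, fell by 1.49 ± 0.15. These 4 calls held throughout. Platelet markers gave 2 of 10 in each direction, with Clec1b falling by 1.97 ± 0.24 and Itga2b rising by 0.92 ± 0.17. Macrophage rises numbered 5 without birth 2, lymphocyte rises 4 with the scanner-file samples, and no platelet marker rose without array D. Itga2b lost its call with the scanner-file samples and with normexp, where it was at +0.19.

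Erythroid markers had sums of 1127 and 1099 at birth and 1053 and 1534 at 1 week. In each direction 1 of 19 was called (5.26%), against 10% higher and 8.97% lower of all genes tested. Hbb-y, the embryonic beta-like globin, was at -3.75 and -4.24 at birth and at -6.89 and -6.47 at 1 week. It was not above background at 1 week and was at least 1.7-fold lower, but with normexp its change was -0.41 and was not called. Hbb-y shares sequence with the other beta globin genes, so its probe may not be specific. Liver markers had no call in 10 and a median of -0.96, which was -0.11 over the 7 members above background on all 4 arrays. Serpina1a was at 0.15 and -1.67 and then at -4.79 and -2.78 (-3.03 ± 0.95, adjusted p = 0.0653). Skeletal muscle markers gave 1 of 11 higher and 4 lower, and none of 4 tested lung markers was called.

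Adipocyte and brown fat markers gave 2 of 15 higher, none lower and a median of +0.63, which was +0.24 without array D and +0.17 over the 10 members above background on all 4 arrays, and 14 of the 15 were higher on array D than on array A. Their sums were 403 and 381 at birth, 442 on array A and 516 on array D. Slc36a2, an amino acid transporter of brown fat and muscle, rose by 2.09 ± 0.20, from -1.45 and -1.33 to 0.52 and 0.88, and held throughout, and Cidea rose by 0.63 ± 0.14. Ucp1, the defining brown fat gene, named after its value was seen, was at -6.84 and -7.03 at birth, -6.28 on array A and 2.40 on array D, so it was above background on array D alone of these 4. Without array A 7 adipocyte markers were called higher, against 1 without array D. The part of fat and atrial RNA in the other differences between arrays A and D was not tested.

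**Figure D4:**
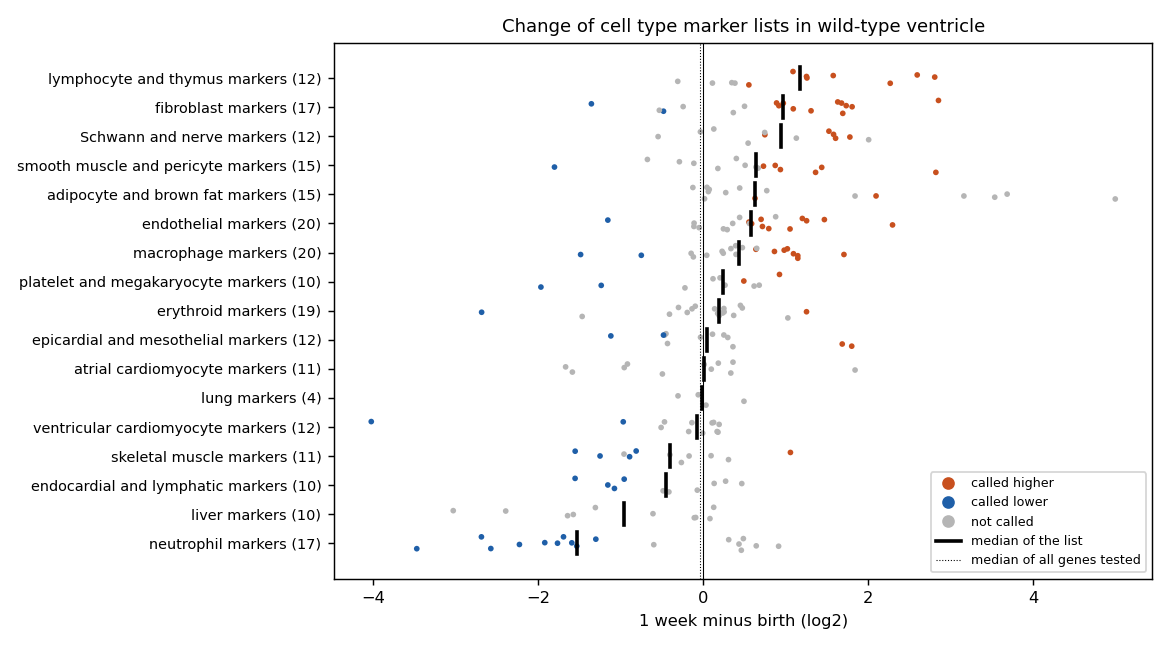
Change of each tested member (points; 1 week minus birth, log2, horizontal axis) of the 17 cell type marker lists, ordered by median, with the number tested in brackets; colours, bars and the dotted line as for the functional lists. Lymphocyte markers (median 1.17) and fibroblast markers (0.97) lie at the top and neutrophil markers (-1.53) at the bottom, and the grey adipocyte points at the far right rest on array D.

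The largest single rises among genes above background on all 4 arrays were in Tuba8, Mapt, Lrtm1 and Rxrg. Tuba8, an alpha-tubulin of muscle and brain, was at 0.15 and -0.17 at birth and at 4.56 and 4.09 at 1 week (+4.33 ± 0.21, 20.1-fold). Mapt, the microtubule-binding protein tau, was at -1.36 and -0.78 and then at 3.04 and 3.02 (+4.10 ± 0.27, 17.1-fold), and Rxrg, a retinoid X receptor that pairs with the thyroid hormone receptor, was at -0.99 and -0.81 and then at 3.21 and 2.78 (+3.89 ± 0.17, 14.8-fold). The transmembrane gene Lrtm1 was at -0.05 and -0.64 and then at 3.80 and 3.47 (+3.98 ± 0.26). All 4 lie far outside the spread of either age and held throughout. Of the other 11 largest rises, between +2.62 and +3.47, several belong to matrix or secreted proteins: Pcolce2, which helps procollagen processing (+3.22 ± 0.18), the adipokine C1qtnf9 (+2.67 ± 0.28) and the lipid transfer protein Pltp (+2.62 ± 0.26). Podn, a matrix proteoglycan, had 1-week arrays at -1.30 and 1.31 and lost its call in 10 alternatives (+2.69 ± 0.71, adjusted p = 0.0416).

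Among genes above background on all 4 arrays, large falls besides those of Hif3a, Myh7 and Hey2 were in Tent5b, a nucleotidyltransferase that lengthens RNA tails (-4.68 ± 0.51), Gipr, the receptor for the gut hormone GIP (-3.61 ± 0.30), and Slc10a6, a steroid sulphate transporter (-3.71 ± 0.65). Gipr was at 1.09 and 1.68 at birth and at -2.53 and -1.91 at 1 week (12.2-fold). Tent5b was at 0.38 and 1.60 and then at -3.24 and -4.15. Both held throughout, and Slc10a6 lost its call without array D. Acsl3, an acyl-CoA synthetase, was at 1.13 and 1.00, then at -0.83 on array A and -3.96 on array D (-3.46 ± 0.85, adjusted p = 0.0327). With the scanner-file samples its change was -1.85 and not called, and the call was lost without birth 1 (adjusted p = 0.13) or birth 2 (adjusted p = 0.109).

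For genes that were not above background at one of the ages, only a bound is available. Of those that rose, the largest bounds were for Efhd1, a mitochondrial calcium-binding protein (at least 18.7-fold higher), Pcp4, a calmodulin regulator (at least 18.7-fold), the integrin Itgb6 (at least 12.9-fold), Ret, the receptor for glial-derived neurotrophic factors (at least 12.3-fold), and the matrix gene Cilp (at least 9.1-fold). Efhd1 was at -5.11 and -4.97 at birth and at -0.70 and -0.63 at 1 week. Of those that fell, the largest were for Mup19 (at least 21.9-fold lower), Oit3 (12.0-fold), Mup18 (11.8-fold), the epithelial factor Grhl3 (10.5-fold) and the ammonium transporter Rhcg (10-fold). The Mup genes encode major urinary proteins of near-identical sequence, so which copy was measured is uncertain. Mup19 was at 0.41 and -1.02 at birth and its call was lost without birth 1 or array D. The call of Mup18 was lost without any 1 of the 4 wild-type arrays, and that of Cilp without birth 2 or array D. A bound is the mean of the brighter age against the higher, on each array of the dimmer age, of the lowest signal among probes well above background and the probe's own. With normexp background correction the fitted log2 changes of the risers were +2.08 for Efhd1, +2.37 for Pcp4, +1.93 for Itgb6, +1.79 for Ret and +1.32 for Cilp. Those of the fallers were -2.66 for Mup19, -1.85 for Oit3, -2.06 for Mup18, -1.50 for Grhl3 and -1.73 for Rhcg. Each was still called, but each was a smaller change than the gene's bound. The bounds therefore hold only under the deposited background correction.

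The difference between the changes of the genotypes was tested in the same fit. Of 15744 genes 1 passed (0.00635%), with 763 at an unadjusted p under 0.05. That gene was Myh7, which fell by 2.29 ± 0.12 in the knock-in, from 9.45 and 9.52 at birth to 7.12 and 7.28 at 1 week, against the fall of 4.89 in wild type. The difference of the changes was -2.60 ± 0.17 (adjusted p = 0.0222). All 4 birth arrays were alike and the 1-week arrays of the genotypes did not overlap. It depends on the sample labels: with the scanner-file samples, each genotype holds 1 array near 4.6 and 1 near 7.2, and the difference was -0.02 ± 1.44 (adjusted p = 0.999). The call also rested on single arrays: it was lost without any 1 of the 4 birth arrays and without knock-in 1-week replicate 2. The size of the difference moved little when an array was left out. It ran from -2.52 without knock-in 1-week replicate 2 to -2.68 without knock-in 1-week replicate 1. For Hey2 the change was -2.58 in the knock-in (difference -1.44 ± 0.27, adjusted p = 0.624) and for Hif3a -5.30 (difference -0.12 ± 0.52).

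**Figure D5:**
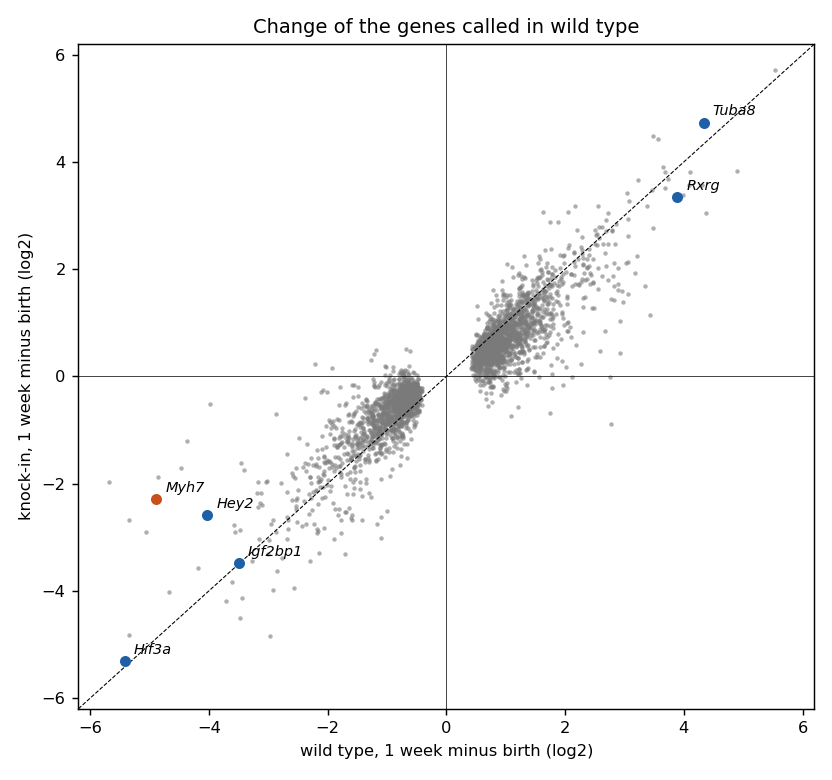
Change from birth to 1 week in the knock-in (vertical axis, log2) against that in wild type (horizontal axis, log2) for the genes called in wild type; the dashed line marks equal change. Myh7, in orange, is the gene whose difference passed, at -4.89 in wild type and -2.29 in the knock-in; the genes were chosen on the wild-type change, so the scatter is a description.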

How the data were processed

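RNA of mouse ventricle was read on single-colour Agilent arrays. Per the file headers, the authors read them with Feature Extraction 11.0.1.1, while the submitters' processing notes give version 9.1. The deposited value table and scanner files hold linear intensity, corrected for background within each array and not normalized between arrays. Per the file headers, the deposited flags (other values, coded 0 and 1) mark spots well above background and outlier spots. Control spots and outlier spots were left out. Intensity was turned to log2 and scaled by subtracting each array's 75th percentile (control probes excluded). Each RefSeq symbol was represented by its brightest probe, and genes entered the test if both arrays of some group were well above background. The fit was limma 3.58.1 in R 4.3.3 (lmFit and eBayes) on 8 arrays and 4 group means, with 4 residual degrees of freedom, and the script was tested on simulated data. Calls used Benjamini-Hochberg adjusted p-values. Named genes were a panel, the largest changes and bounds, and up to 4 members per list and direction with the smallest p; clone, predicted and multigene-family names were left out. The gene lists and their members were chosen with earlier results of these data known. Precision is limited by the number of arrays. A few list members are not reported here.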

Additional observations from a re-analysis of the deposited data

Results flagged for a closer look

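Myh7 changed differently in the 2 genotypes by a test of the difference itself: the log2 change was -4.89 in wild type and -2.29 in the knock-in, a difference of -2.60 (limma adjusted p = 0.0222). With the scanner-file samples the difference was -0.02. The adjusted p was 0.105 with replicate number as a block, 0.0585 with quantile normalization and 0.0877 with no filter on dim probes, and it was 0.0374 with median scaling and 0.00118 with normexp.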

How the results depend on the processing

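Against 2990 genes called, array A as the only 1-week array gave 1207 (651 higher, 556 lower; 1067 shared with the 2990), the 4 wild-type arrays alone 1448 (855 and 593; 1388 shared), and no filter on dim probes 1870 (787 lower; 1738 shared). Median scaling gave 1001 higher and the scanner-file samples 894 lower. Leaving out each array in turn gave 1192 to 4181 called, 716 to 1948 higher and 476 to 2233 lower. The count of genes whose change differed between genotypes was 0 with the scanner-file samples (also without array D, an alternative chosen after seeing the data), with the replicate block, with quantile normalization and with no filter, 2 with median scaling and with the filter on all 4 wild-type arrays, and 0 to 4 with each array left out. The replicate block gave 2902 calls. Correlations of same-numbered arrays ran from -0.137 to 0.285, the highest being between the genotypes at birth. They do not settle whether same-numbered samples share more than a number. With the mean of all probes Hcn3 turned to +0.19, and with the scanner-file samples, with or without array D, Nrn1 turned to +0.0071. Of 45 list medians 30 kept their sign in all 20 alternatives. The causes were not tested. With 2 arrays per group, arrays pooled from 3 ventricles, age confounded with slide row, and sample names that differ between the deposited records, small changes are uncertain.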
